A study of Mus musculus with 6 samples.

Results

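The clustered protocadherins are adhesion proteins of the cadherin superfamily encoded by 3 neighbouring gene clusters, alpha, beta and gamma. Their rows in the array table were taken wherever the platform annotation holds a symbol starting with Pcdha, Pcdhb or Pcdhg. This gave 26 of 41345 probe sets, 22 for beta, 1 for alpha and 3 for gamma. Each of the 22 beta genes had a probe set of its own. The alpha probe set carried 9 symbols, 1 gamma probe set carried 9 and another carried 2, so that Pcdhga10 was the only alpha or gamma gene with a single-symbol probe set. The annotation thus named 9 of the 14 alpha genes, 22 of the 22 beta genes and 10 of the 22 gamma genes and pseudogenes of the RefSeq table.

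Expression was compared between Pax7-GFP cells and undifferentiated mouse embryonic stem (ES) cells, with 3 arrays in each group. Pax7-GFP cells were sorted by flow cytometry for a green fluorescent reporter of Pax7, a transcription factor of muscle progenitors, after 3 weeks of myogenic culture of mouse ES cells. The ES cells were pluripotent cultures that had not been differentiated. The labels give no strain, clone or construct of the reporter line, and do not say whether the ES cells carried the reporter or were sorted. Each array measured many cells together, so that more cells with a transcript and more transcript per cell cannot be told apart.

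In neurons, where these proteins are best known, each alpha and gamma isoform starts from its own variable exon with its own promoter, and these exons are spliced to constant exons shared by the cluster. The beta genes have a single exon and no constant exon. Promoters are chosen in combinations that differ from cell to cell, under control of DNA methylation, CTCF and cohesin. The proteins on the surface bind matching isoforms on other surfaces, which lets a neuron tell its own branches from those of others.

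Both labels held in the markers of the 2 cell types. All 7 markers of pluripotent cells fell and all 7 markers of myogenic progenitors rose in Pax7-GFP cells. Nanog, a core pluripotency factor, had a log2 signal of 5.13 ± 0.15 in Pax7-GFP cells and 12.02 ± 0.072 in ES cells (SD, n = 3 each). Pax7 averaged 10.90 ± 0.25 in Pax7-GFP cells and 5.70 ± 0.073 in ES cells, a rise that the sort on its reporter selects for. Array medians lay between 5.61 and 5.69, and arrays correlated across all probe sets at 0.985 to 0.990 within Pax7-GFP cells, at 0.994 within ES cells and at 0.915 to 0.922 between groups.

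Of the 22 beta probe sets, 12 rose in Pax7-GFP cells, 0 fell and 10 were not called, where a call needed a limma p adjusted over all 41345 probe sets under 0.05 and at least a 2-fold difference. The alpha probe set and the 3 gamma probe sets were not called in either direction. Over all probe sets 5.73% were called higher and 6.25% lower. The median log2 fold change of the beta probe sets, Pax7-GFP minus ES, was 1.18, or 2.26-fold, against a median of 0.028 over all probe sets. The alpha and gamma probe sets lay between -0.32 and 0.41. Whether these probe sets read the transcripts of their clusters was not tested, so the clusters are not compared on equal terms.

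**Figure D1:**
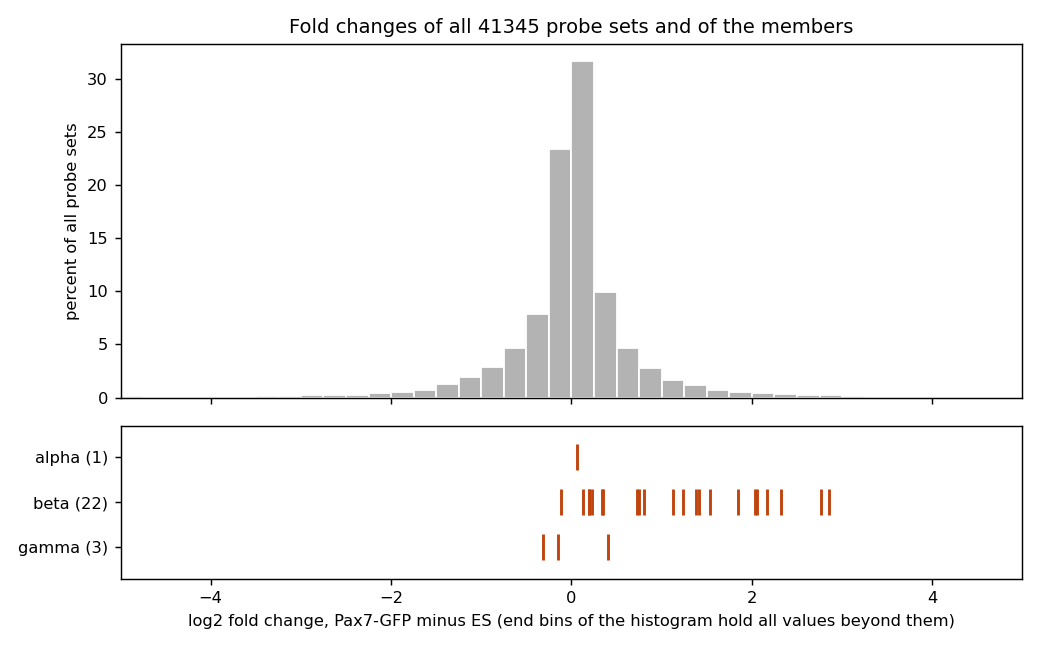
The upper panel shows the log2 fold changes of all 41345 probe sets (Pax7-GFP minus ES) as the percent of probe sets in each bin, and each tick below marks 1 probe set of the alpha, beta or gamma cluster. The alpha and gamma ticks lie between -0.32 and 0.41, while beta ticks reach 2.86.

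The 12 risers were the genes from Pcdhb11 to Pcdhb22, which lie next to one another at the gamma side of the beta cluster. The 10 genes from Pcdhb1 to Pcdhb10, at the alpha side, supplied none. This division of the cluster was drawn after the values were seen, and it therefore has no test. The order along the chromosome is that of the RefSeq gene table, in which the beta genes run in the order of their numbers. Across the 22 genes the log2 fold change correlated with this order at Pearson r = 0.82 and Spearman rho = 0.82. This only describes probe sets that share the same 6 arrays. The coefficients come from the values that gave the division, so they lend it no support and do not show a gradient. Within the parts, Pcdhb2 at 0.80 stood above Pcdhb9 at 0.20, and Pcdhb17 at 2.86 above Pcdhb21 at 1.23. The median probe set mean among Pcdhb11 to Pcdhb22 was 6.30 in Pax7-GFP cells and 4.57 in ES cells, and among Pcdhb1 to Pcdhb10 it was 4.72 in Pax7-GFP cells and 4.41 in ES cells.

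**Figure D2:**
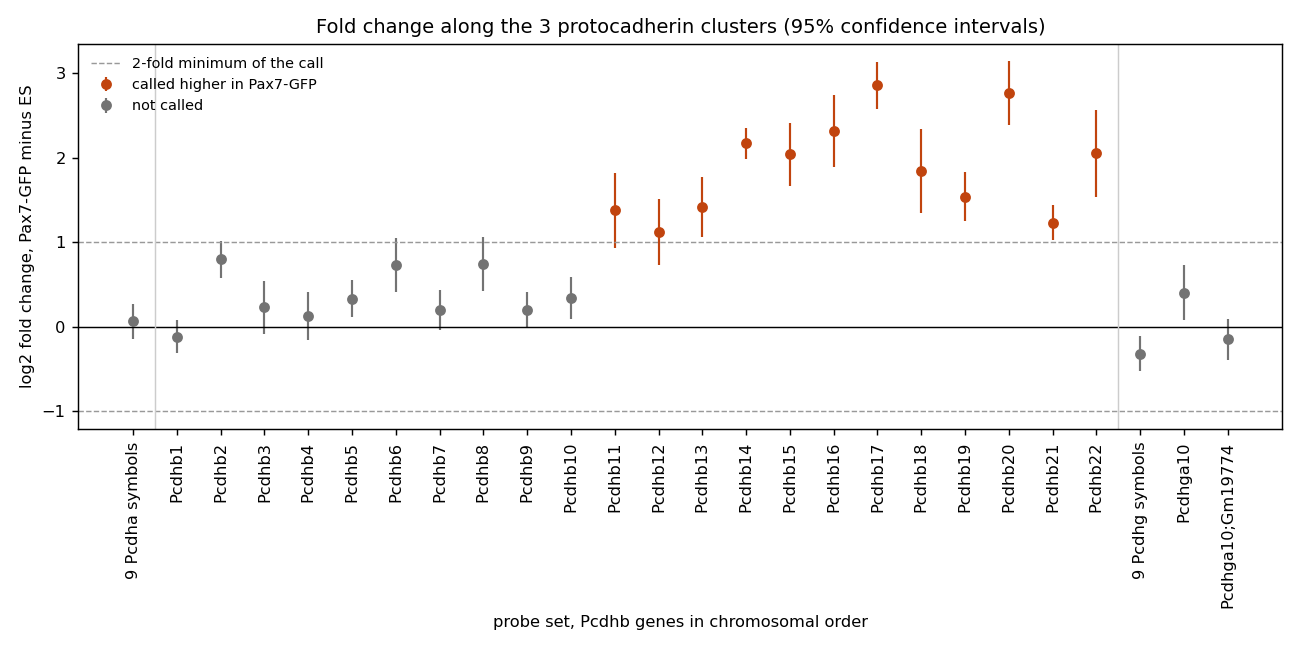
Log2 fold changes (Pax7-GFP minus ES) of the 26 probe sets with their 95% confidence intervals, with the beta genes in chromosomal order between the alpha probe set on the left and the gamma probe sets on the right. The called probe sets, from Pcdhb11 to Pcdhb22, lie between 1.12 and 2.86, and the uncalled beta probe sets between -0.11 and 0.80.

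Every beta gene encodes an adhesion isoform of the same build, with extracellular cadherin repeats that bind the same isoform on a facing cell. Pcdhb17 had the largest rise. Its log2 signal was 7.47, 7.32 and 7.72 on the Pax7-GFP arrays, against 4.62, 4.74 and 4.59 on the ES arrays. The groups stood well apart, by 2.86 log2 units (SE 0.12), which is 7.24-fold, at a limma adjusted p of 4.03e-06. Pcdhb20 read 7.65, 7.59 and 8.15 in Pax7-GFP cells, against 4.98, 4.94 and 5.18 in ES cells. Here too the groups did not overlap, and the third Pax7-GFP array stood above the other two. The rise of 2.76 log2 units (SE 0.16) was 6.78-fold, at a limma adjusted p of 2.00e-05.

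Pcdhb16 and Pcdhb14 followed. Pcdhb16 read 6.99, 6.90 and 7.10 on the Pax7-GFP arrays, against 4.50, 4.43 and 5.11 on the ES arrays. Its 3 Pax7-GFP values lay close together, whereas ES replicate 3 was higher than the other ES arrays. The rise was 2.32 log2 units (SE 0.18), 4.99-fold in size, at a limma adjusted p of 8.26e-05. Pcdhb14 read 7.00, 7.00 and 7.05 in Pax7-GFP cells, against 4.90, 4.77 and 4.88 in ES cells. Both groups were tight, with SDs of 0.028 in Pax7-GFP cells and 0.070 in ES cells, and the adjusted p of 2.18e-06 was the lowest of the 26 probe sets (limma), beside a rise of 2.17 log2 units (SE 0.078).

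Pcdhb22 and Pcdhb15 also rose by at least 4-fold, which made 6 of the 22 beta probe sets at that size, against 1.66% of all probe sets. Pcdhb22, the gene nearest the gamma cluster, read 6.23, 6.89 and 7.01 in Pax7-GFP cells, against 4.47, 4.61 and 4.90 in ES cells. Pcdhb15 read 6.33, 6.07 and 6.38 in Pax7-GFP cells, against 4.53, 3.97 and 4.16 in ES cells. Their log2 fold changes were 2.05 (SE 0.22) and 2.04 (SE 0.16).

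The remaining 6 risers differed by less than 4-fold. Pcdhb18 had the widest spread among Pax7-GFP arrays, with 6.07, 6.09 and 6.85, against 4.59, 4.44 and 4.45 in ES cells, and a log2 fold change of 1.84 (SE 0.21). Pcdhb19 rose by 1.54 (SE 0.12), Pcdhb13 by 1.42 (SE 0.15) and Pcdhb11 by 1.38 (SE 0.19). Pcdhb21 lay below the array median in both groups, at 4.80, 4.60 and 4.72 in Pax7-GFP cells, against 3.41, 3.49 and 3.51 in ES cells. It stood at 1.23 (SE 0.086), but at 0.25, and no longer called, when signals under the lower quartile of the table were raised to that quartile. Pcdhb12 had the smallest rise, 1.12 (SE 0.16), with 5.14, 5.41 and 5.76 in Pax7-GFP cells, against 4.40, 4.39 and 4.14 in ES cells. It fell short of the 2-fold minimum without Pax7-GFP replicate 3, at 0.96, and with the raised floor, at 0.98.

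Among Pcdhb1 to Pcdhb10, 5 probe sets passed the p threshold without reaching 2-fold, all of them higher in Pax7-GFP cells, and 5 passed neither. Without a minimum fold, 15.8% of all probe sets were past the p threshold and higher and 16.6% were lower, so 17 of 22 beta probe sets stood against 15.8%. Pcdhb2, next to the start of the cluster, came nearest to a call, with 4.90, 4.85 and 5.09 in Pax7-GFP cells, against 4.20, 4.08 and 4.16 in ES cells. The difference was 0.80 log2 units (SE 0.093) at a limma adjusted p of 0.000551. Pcdhb8 at 0.74 and Pcdhb6 at 0.73 had adjusted p-values of 0.00484 and 0.00503, and their groups did not overlap. Pcdhb10, the neighbour of the first riser, read 4.04, 4.34 and 4.34 in Pax7-GFP cells, against 3.95, 3.88 and 3.85 in ES cells. Its groups did not overlap, yet the difference was small, at 0.34 (limma, adjusted p = 0.0439). Pcdhb5 stood at 0.33 with an adjusted p of 0.0297.

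Pcdhb3, Pcdhb4, Pcdhb7 and Pcdhb9 had log2 fold changes between 0.13 and 0.23, with 95% confidence intervals that included 0. Pcdhb1 was the only beta probe set with a negative value. It read 4.59, 4.60 and 4.54 in Pax7-GFP cells, against 4.61, 4.65 and 4.80 in ES cells, which gave -0.11 (95% confidence interval -0.31 to 0.083). All 3 Pax7-GFP values lay just under all 3 ES values. In all, the Pax7-GFP arrays lay wholly above the ES arrays in 18 of 22 beta probe sets, against 23.7% of all probe sets, and wholly below in 1, against 22%.

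**Figure D3:**
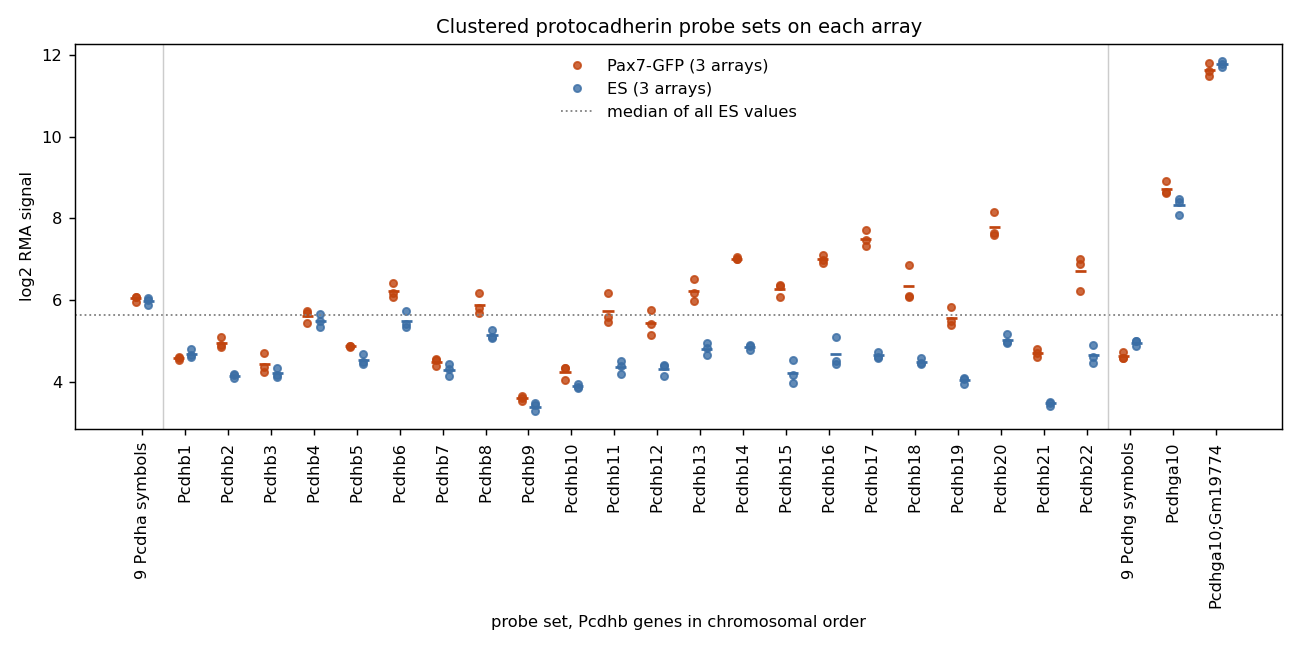
Log2 RMA signal of each of the 26 probe sets on the 3 Pax7-GFP arrays (left, orange) and the 3 ES arrays (right, blue), with bars at the group means and a dotted line at 5.63, the median of all ES values. All 22 beta probe sets average under that line in ES cells, and every orange point lies above every blue one in the 12 probe sets from Pcdhb11 to Pcdhb22 and in 6 of the 10 from Pcdhb1 to Pcdhb10.

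All 22 beta probe sets averaged below the median of the ES arrays, 5.63, in ES cells. In Pax7-GFP cells 11 of them averaged below the median of the Pax7-GFP arrays, 5.65, among them 3 of the 12 risers. The table holds no detection calls, so a dim probe set cannot be called absent, and folds from dim signals understate the change. The beta genes are close paralogs, and how far the probes of 1 gene also bind the transcripts of another was not tested, so each value is uncertain to a single gene.

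The division can be followed on the single Pax7-GFP arrays, from which it was drawn. The calls used the same arrays and the same minimum of 1 log2 unit. Counts at that cutoff therefore largely follow from the division and do not replicate it. Pcdhb11 to Pcdhb22 lay at least 1 log2 unit above their ES means in 11, 12 and 12 of 12 genes on Pax7-GFP arrays 1, 2 and 3, and Pcdhb1 to Pcdhb10 in 0, 0 and 1 of 10. The arrays were not equally high. Array 3 gave the highest of the 3 values for 11 of the 12 genes from Pcdhb11 to Pcdhb22, whereas it was highest for 30.3% of all probe sets. The mean signal of these 12 genes was 6.23, 6.24 and 6.60 on the Pax7-GFP arrays, against 4.46, 4.43 and 4.50 on the ES arrays. Without Pax7-GFP replicate 3, their log2 fold changes ran from 0.96 to 2.75 and 11 of 12 were called.

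Listed markers of muscle progenitors and of fibroblasts were read on the same arrays. The mean of the 7 myogenic progenitor markers was 10.65, 10.61 and 10.93 on the Pax7-GFP arrays, against 6.22, 6.03 and 6.13 on the ES arrays. This mean was highest on array 3, but the members differed. Pax7, Myog, Chrna1 and Cdh15 were highest on array 3 of the Pax7-GFP arrays, whereas Myf5, Myod1 and Des were highest on array 1. The mean of the 6 fibroblast markers was highest on array 1 within Pax7-GFP cells, at 8.56, 8.23 and 8.09, against 6.02, 6.22 and 6.25 in ES cells. Its members differed too. Col1a1, Dcn and Lum were highest on array 1 and lowest on array 3. Fap and Pdgfra were highest on array 1 and lowest on array 2, and Col3a1 was highest on array 3. Of these 6 markers 4 rose and 0 fell, against 5.73% higher and 6.25% lower over all probe sets. With 6 markers, 0 fallers is close to that share. Fap, a fibroblast surface protease, had the largest rise, at 4.29 (SE 0.21). The part of either list in the beta values was not tested.

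Neurons are the cells in which clustered protocadherins are best known, so their markers are given as well. Of 15 neuronal and neural progenitor markers 14 had a probe set, and 2 rose, 5 fell and 7 were not called. Beside these counts and those of the other cell types below stand 5.73% higher and 6.25% lower calls over all probe sets. Their mean signal was 5.63 to 5.77 on the Pax7-GFP arrays, against 6.76 to 6.78 on the ES arrays. The neuronal markers moved both ways. Dcx, a microtubule protein of young neurons, rose by 1.51 and Map2, a dendritic one, by 1.46, while Tubb3, the neuronal tubulin, stood at -4.30 and Stmn2 at -5.51. In Pax7-GFP cells 7 of the 14 averaged below the array median, among them Tubb3 at 5.04, Stmn2 at 5.44 and Nefl, a neurofilament, at 4.47. Of 5 glial and neural crest markers measured, 0 rose and 1 fell, and of 4 endothelial markers 1 rose and 1 fell. With 5 and 4 markers, counts of 0 or 1 say nothing particular of these cell types. The part of these cell types in the beta values was not tested.

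The alpha cluster was represented by 1 probe set, annotated with Pcdha1, Pcdha2, Pcdha4, Pcdha9, Pcdha10, Pcdha11, Pcdha12, Pcdhac1 and Pcdhac2. It read 6.09, 6.09 and 5.97 in Pax7-GFP cells, against 6.06, 5.88 and 6.001 in ES cells. The groups overlapped, and the log2 fold change was 0.065 (95% confidence interval -0.14 to 0.27, limma, adjusted p = 0.643). A probe set that carries several isoforms cannot show a change of 1 isoform, nor an exchange of isoforms at equal total. Which strand and exons the alpha and gamma probe sets match was not given, and whether they read the clusters' transcripts was not tested. Their lack of calls therefore does not show that alpha and gamma expression stayed the same. The C-type isoforms, which neurons express more evenly than the others, could not be read alone in either cluster.

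The gamma cluster was represented by 3 probe sets that did not move together. The first, annotated with Pcdhga3, Pcdhga8, Pcdhga9, Pcdhga11, Pcdhga12, Pcdhgb6, Pcdhgc3, Pcdhgc4 and Pcdhgc5, read 4.74, 4.58 and 4.59 in Pax7-GFP cells, against 4.99, 4.99 and 4.87 in ES cells. The Pax7-GFP values lay below the ES values, at a difference of -0.32 log2 units (SE 0.086) and a limma adjusted p of 0.0275, too small for a call. The probe set annotated with Pcdhga10 alone, an A-type gamma isoform, read 8.63, 8.64 and 8.92 in Pax7-GFP cells. It read 8.08, 8.41 and 8.48 in ES cells. The groups did not overlap, but the difference of 0.41 did not pass (95% confidence interval 0.082 to 0.73, limma, adjusted p = 0.0612). The probe set annotated with both Pcdhga10 and Gm19774 read 11.81, 11.62 and 11.48 in Pax7-GFP cells, against 11.84, 11.79 and 11.71 in ES cells. It had the highest mean of the members in both groups, although signals of different probe sets are not comparable. Its groups overlapped, and its log2 fold change was -0.15 (95% confidence interval -0.39 to 0.099). The 2 probe sets with the symbol Pcdhga10 thus had differences of opposite sign, neither past the threshold. By ES mean they stood at percentiles 84.2 and 99.2 of all probe sets. Every beta probe set averaged below the ES median, but signals of different probe sets do not rank their genes by expression. That the 2 probe sets with the symbol Pcdhga10 read its transcripts rests on the annotation alone and was not tested.

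Genes beside the clusters, on the alpha side, between beta and gamma and on the gamma side, were read for comparison. Beside the counts of this and the following lists stand 5.73% higher and 6.25% lower calls and a median of 0.028 over all probe sets. Of 15 listed neighbours 14 had a probe set of their own, and 0 rose, 3 fell and 11 were not called, with a median log2 fold change of -0.028. With 14 genes, 0 risers is close to the 5.73% over all probe sets and says nothing particular of the neighbours. Slc25a2, a mitochondrial ornithine carrier, and Taf7, a subunit of the general transcription factor TFIID, lie between the beta and gamma clusters. Slc25a2 read 5.35 ± 0.18 in Pax7-GFP cells and 5.12 ± 0.17 in ES cells (SD, n = 3 each), with a log2 fold change of 0.22 (limma, adjusted p = 0.254). Taf7 fell by 1.39 (SE 0.12), to 6.90 ± 0.23 in Pax7-GFP cells, against 8.29 ± 0.043 in ES cells (SD, n = 3 each). Diaph1, an actin-nucleating formin beyond the gamma cluster, fell by 1.42 (SE 0.18). On the alpha side Wdr55 fell by 1.23 (SE 0.13) and Zmat2, the nearest listed gene before the alpha cluster, stood at -0.84, short of the minimum.

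Genes for proteins that fold the chromatin of these clusters held 1 call, a share near that of all probe sets. In the list of CTCF, cohesin and its loaders and removers, 0 of 11 rose, 1 fell and 10 were not called, against 5.73% higher and 6.25% lower over all probe sets. Without a minimum fold, 5 of the 11 were past the p threshold and higher and 3 were lower. The shares over all probe sets were then 15.8% and 16.6%. Ctcf, which binds the protocadherin promoters and enhancers, averaged 9.46 ± 0.23 in Pax7-GFP cells and 9.85 ± 0.053 in ES cells (SD, n = 3 each), a difference of -0.39 (limma, adjusted p = 0.0488). The cohesin subunits Rad21, Smc1a and Stag2 stood at 0.33, 0.61 and 0.74, and Smc3 at -0.48. Wapl, which releases cohesin from DNA, fell by 1.07 (SE 0.075), and after quantile normalization it stood just short of the 2-fold minimum.

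Genes of DNA methylation and silencing were called lower more often than higher. Among 18 genes there were 2 that rose, 7 that fell and 9 without a call, and the median was -0.54. Over all probe sets 5.73% were called higher and 6.25% lower. With 18 genes, 2 risers is close to that share. Dnmt3l, a cofactor of the de novo methyltransferases, fell by 4.86 (SE 0.20), to 5.15 ± 0.43 in Pax7-GFP cells, against 10.01 ± 0.062 in ES cells (SD, n = 3 each). Dnmt3b, the methyltransferase that acts on protocadherin promoters in mouse embryos, fell by 3.36 (SE 0.12), to 6.03 ± 0.21 in Pax7-GFP cells, against 9.39 ± 0.063 in ES cells (SD, n = 3 each). Tet3, which oxidises methylated cytosine, rose by 2.26 (SE 0.16), while its relatives Tet1 and Tet2 fell by 3.49 and 1.13. Smchd1, a chromatin protein that represses the clusters in mouse, stood at 0.72 (SE 0.10) with a limma adjusted p of 0.00133 and was not called. Rest, a repressor of neuronal genes that binds at the alpha cluster, fell by 1.23 (SE 0.15).

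Partners of the proteins, which bind, cleave or signal for them, included more risers than fallers. Of 21 listed genes 18 had a probe set, and 4 rose, 1 fell and 13 were not called, with a median of 0.31. The 1 that fell, of 18, is close to the 6.25% lower over all probe sets. Marcks, a membrane-bound actin regulator that acts downstream of gamma protocadherins in neurons, rose by 2.36 (SE 0.18), to 9.89 ± 0.37 in Pax7-GFP cells, against 7.53 ± 0.067 in ES cells (SD, n = 3 each). Wasf1, a subunit of the WAVE complex that regulates actin and binds many protocadherins, fell by 1.06 (SE 0.085). Adam10, the protease that sheds protocadherin ectodomains, rose by 1.11 (SE 0.11), and the kinases Fyn and Prkca rose by 2.02 and 1.13.

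Protocadherins outside the clusters, which are encoded singly, were called higher in 3 of 12 cases and lower in 0, with a median of 0.21. Over all probe sets 5.73% were called higher and 6.25% lower, and with 12 genes 0 fallers is close to that share. Pcdh17 had the largest rise, at 9.60 ± 0.23 in Pax7-GFP cells and 4.92 ± 0.096 in ES cells (SD, n = 3 each), higher by 4.68 log2 units (SE 0.13), which is 25.7-fold, at a limma adjusted p of 7.38e-07. Pcdh7 and Pcdh18, the other risers, stood at 4.05 and 3.99. Pcdh1, which lies on the gamma side of the clusters, stood at -0.030. Classical cadherins were higher in 5 and lower in 3 of 11, led by Cdh15, the M-cadherin of muscle progenitors, at 3.64 (SE 0.11), and by Cdh1, the E-cadherin of epithelia and ES cells, at -3.96 (SE 0.15). Each value is a difference in a gene's own log2 signal, and no test compared these genes with one another or with the beta genes.

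**Figure D4:**
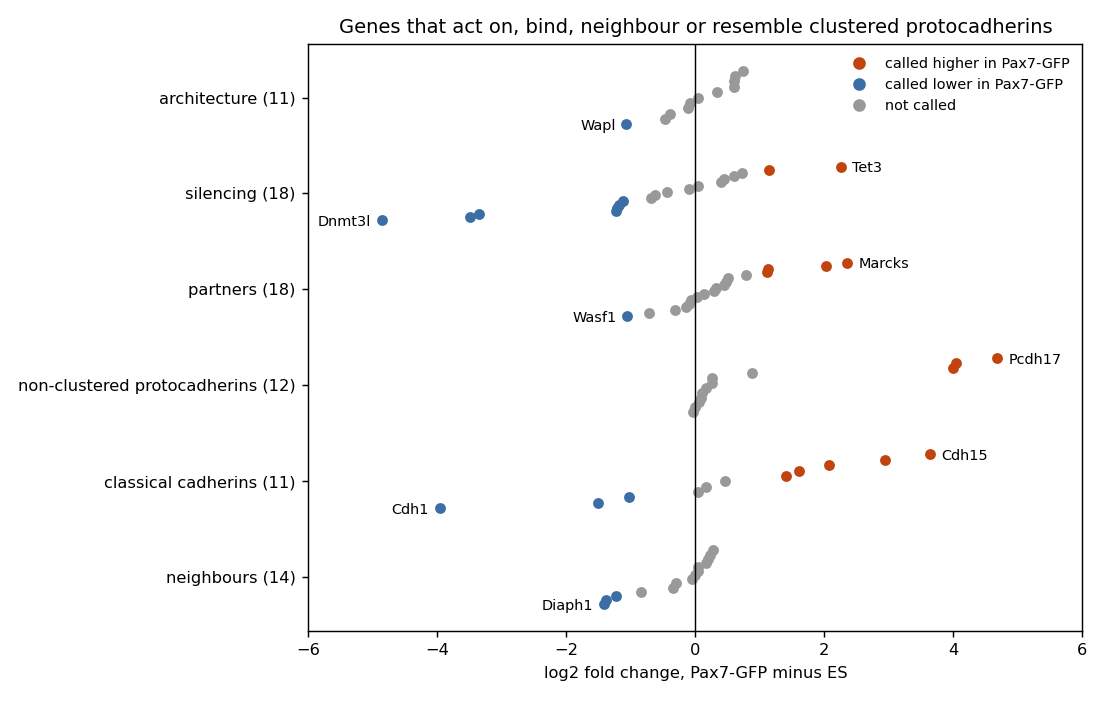
Log2 fold changes (Pax7-GFP minus ES) of the genes of 6 lists, 1 point per gene, with the number measured in brackets and the largest called change in each direction named. Pcdh17 at 4.68 and Dnmt3l at -4.86 mark the ends, and most points of the chromatin architecture and neighbour lists lie within 1 unit of 0.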

How the data were processed

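Expression was measured on single-colour arrays of total RNA, 1 array for each of 6 samples, with cRNA made by a double amplification per the labels' protocols. The deposited values are log2 signals that the authors made with RMA (background correction, normalization between arrays and summary of probes) in R 2.12.1, per the submitters' processing notes. Not given in the sources used here are the RMA options, the probe sequences and a genome build, and no coordinates are printed. RMA compresses differences of dim probe sets. Values ran from 2.73 to 13.7, and the number of arrays limits their precision.

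GEO's platform annotation named 25335 of 41345 probe sets, 23521 with 1 symbol and 1814 with several. The other 16010 are unnamed here and stayed in the fit. All 41 protocadherin symbols were found in the RefSeq gene table (GRCm38.p6), which was used for gene order only.

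Groups and replicate numbers came from the sample titles, which call each replicate biological. Nothing says how the cultures were kept apart, and p-values therefore reflect only how far these samples spread, part of which may be technical. Pax7-GFP was compared with ES on every probe set by limma's lmFit and eBayes (limma 3.58.1, R 4.3.3), two-sided and without covariates, with Benjamini-Hochberg adjustment over all 41345. A call needed an adjusted p below 0.05 together with a difference of 1 or more log2 units in either direction. "Rose" and "fell" are used of called genes. Errors are SD over 3 arrays, or the moderated standard error (SE). A listed gene was read by its single-symbol probe set of highest mean. On data simulated for 41345 probe sets, the fit called 95 of 100 changed by 1.5, 99 of 100 changed by 3 and 1 of 41145 unchanged ones. The simulation drew independent normal values with the same SD in both groups and changed few probe sets. In the data the median SD was 0.095 in ES cells and 0.15 in Pax7-GFP cells, and many more probe sets differed. It therefore checks the fit and does not give the error rate of these calls.

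The members and gene lists were chosen with earlier results of these data known. Values on all 6 arrays were to be given for the 4 called single-symbol probe sets with the largest change in each cluster, for C-type isoforms with their own probe set, for probe sets with several symbols, and for the brightest member. Those of other members were added after values were seen. From each related list the largest called rise and fall are named. All further genes in the text were picked with their values in view. Alternatives took other fold thresholds, array scalings and variance priors, added array weights or a replicate block, left out dim probe sets or single arrays, set a signal floor, or tested genes. Scanner files were not used here, so the background correction was not varied.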

Additional observations from a re-analysis of the deposited data

How the results depend on the processing

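Of 37 single probe sets compared with the main result over the alternatives, 619 of 645 comparisons kept their direction and their side of the threshold, 20 lost a call, 6 gained one and 0 reversed. Fold thresholds moved counts by construction. With no minimum fold, 6520 probe sets were higher and 6870 lower in all, 5 of Pcdhb1 to Pcdhb10 were higher, 1 alpha or gamma probe set was lower, and 29 genes of the 6 related lists were higher. With at least 4-fold, 685 were higher and 778 lower in all, 6 beta probe sets were higher, all among Pcdhb11 to Pcdhb22, and the related lists had 9 higher and 4 lower. In limma's treat test against 2-fold, 1030 were higher and 1174 lower in all, the related lists had 5 lower, and 8 of Pcdhb11 to Pcdhb22 were higher. Testing genes in place of probe sets left 1585 lower, because fewer were tested. The filter on dim probe sets kept only 5 beta probe sets, 4 of Pcdhb11 to Pcdhb22, all 4 called, and 1 of Pcdhb1 to Pcdhb10, with medians of 2.32 over the 5, 2.54 and 0.73. Raising signals under the lower quartile to that quartile gave medians of 0.86 over all beta probe sets and 0.10 over Pcdhb1 to Pcdhb10. Without single arrays, 11 to 12 beta probe sets were called higher, the beta median ran from 1.06 to 1.23, and 2262 to 2541 probe sets were higher and 2444 to 2736 lower in all. The labels do not say whether replicate numbers pair the samples, and 3 pairs are too few to settle it. The deviations of same-numbered arrays from their group means correlated at -0.087, -0.18 and 0.026, and 1 of 3 ES arrays correlated best with the Pax7-GFP array of its own number. With the replicate block, 2369 probe sets were higher and 2583 lower, and 12 beta probe sets were higher. The table gives no signal over background, so dim beta signals limit what can be read.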
